A study of Homo sapiens with 18 samples.

Results

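Small RNA carried out of wild type HEK293T cells in extracellular vesicles (EVs) was compared with the small RNA inside the same kind of cells. HEK293T is a human embryonic kidney line that carries the SV40 large T antigen. Of the 18 libraries of the series, 6 enter this comparison: 3 from wild type vesicles and 3 from wild type cells, all from cultures kept without serum for 24 h and labelled as biological replicates. The other 12 libraries come from vesicles and cells of an ATG7-/- line (clone F2) and an ATG12-/- line (clone D9), each a single clone with the same serum starvation. ATG7, an activating enzyme, and ATG12, a ubiquitin-like protein, are both needed to link LC3-family proteins to lipid in autophagy. Those libraries share the estimate of the spread, and they return only in the last comparison. How the vesicles were purified is not given in the sources used here. The table lists 2462 features, of which 1940 were above 0 in at least 1 wild type library and 905 reached 10 normalised reads in at least 3 of the 18 libraries and were tested. A feature that reached this minimum only in the libraries where it is high had to differ, so counts below describe the tested features and not the whole table.

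Extracellular vesicles are membrane-bound particles that cells shed from their surface or release from endosomes, and the RNA in them is mostly short or fragmented. C/D box small nucleolar RNAs (snoRNAs) guide 2′-O-methylation of ribosomal RNA, and H/ACA box snoRNAs guide its pseudouridylation. Small Cajal body RNAs (scaRNAs) do the same for spliceosomal small nuclear RNAs (snRNAs). Most human snoRNAs are cut from introns of host genes, some of which, such as GAS5 and the SNHG genes, make no known protein in quantity. Y RNAs bind the Ro60 protein, vault RNAs sit in a large cytoplasmic ribonucleoprotein particle, and telomerase RNA (hTR) is the template of telomerase. Transfer RNAs are cleaved into fragments that are among the most abundant RNAs reported from vesicles of many cell types. MicroRNAs repress mRNAs that pair with their seed, bases 2 to 8 of the mature strand.

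The snoRNAs printed first were chosen because neighbours from 1 host gene, or RNAs of 1 class, stood far apart in the comparison. U28, U26 and U22 lie in the host gene SNHG1 on the minus strand of chromosome 11, at chr11:62854621-62854695, chr11:62855292-62855366 and chr11:62852910-62853035. HBII-142 (SNORD66) lies in EIF4G1 at chr3:184325696-184325771, plus strand. U3 (SNORD3A), which has its own promoter, is at chr17:19188016-19188232, plus strand. ACA2b (SNORA2B) and ACA34 (SNORA2C) lie in KANSL2 on the minus strand, at chr12:48667457-48667593 and chr12:48654382-48654518. ACA63 (SNORA77) lies in ATP2B4 at chr1:203729581-203729705, plus strand. All are on GRCh38, with sequences from GENCODE release 29. Capitals mark the first TGATGA, the usual form of box C, and the last CTGA, box D, in C/D snoRNAs. In H/ACA snoRNAs capitals mark an ACA within the last 8 bases. U28, U26 and U22 hold no TGATGA in these letters.
U28: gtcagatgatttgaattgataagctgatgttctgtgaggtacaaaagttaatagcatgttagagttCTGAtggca
U26: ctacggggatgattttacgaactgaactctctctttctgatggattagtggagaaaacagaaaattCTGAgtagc
U22: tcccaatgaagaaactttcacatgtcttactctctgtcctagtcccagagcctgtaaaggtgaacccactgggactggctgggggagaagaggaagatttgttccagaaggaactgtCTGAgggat
HBII-142: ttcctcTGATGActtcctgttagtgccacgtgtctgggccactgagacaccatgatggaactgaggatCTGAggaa
U3: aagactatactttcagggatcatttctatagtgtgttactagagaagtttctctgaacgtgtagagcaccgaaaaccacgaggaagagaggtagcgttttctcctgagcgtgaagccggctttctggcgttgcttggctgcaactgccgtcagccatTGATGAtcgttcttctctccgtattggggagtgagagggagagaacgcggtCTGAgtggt
ACA2b: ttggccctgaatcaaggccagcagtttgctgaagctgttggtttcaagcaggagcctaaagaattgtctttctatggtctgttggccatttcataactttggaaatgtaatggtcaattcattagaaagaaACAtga
ACA34: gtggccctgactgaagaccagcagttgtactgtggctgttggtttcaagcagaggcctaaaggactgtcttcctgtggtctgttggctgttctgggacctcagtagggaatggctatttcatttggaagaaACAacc
ACA63: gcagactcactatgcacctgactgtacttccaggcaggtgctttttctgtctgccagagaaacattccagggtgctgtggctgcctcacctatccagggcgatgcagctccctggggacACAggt

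The microRNAs shown are those the microRNA results turn on, with mature sequences from RefSeq on GRCh38.p14 and the seed in capitals. The let-7a and let-7e strands share 1 seed, and miR-92a, miR-25 and miR-92b share another. The entries for miR-6724-5p and miR-4485-3p match longer RNAs: miR-6724-5p lies in a ribosomal RNA repeat on chromosome 21, and miR-4485-3p matches the mitochondrial ribosomal RNA gene MT-RNR2.
hsa-let-7a-5p: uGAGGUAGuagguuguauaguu
hsa-let-7e-5p: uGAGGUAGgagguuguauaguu
hsa-miR-196a-5p: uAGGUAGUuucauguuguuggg
hsa-miR-92a-3p: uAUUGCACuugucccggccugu
hsa-miR-25-3p: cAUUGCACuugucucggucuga
hsa-miR-92b-3p: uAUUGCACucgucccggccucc
hsa-miR-223-3p: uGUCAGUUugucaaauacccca
hsa-miR-126-3p: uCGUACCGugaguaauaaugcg
hsa-miR-6724-5p: cUGGGCCCgcggcgggcgugggg
hsa-miR-4485-3p: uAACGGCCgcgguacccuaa

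The reads assigned to features numbered 2185734, 2043493 and 1881080 in the vesicle libraries and 1606102, 1514246 and 1396337 in the cell libraries. Every deposited value is a whole number of reads divided by 1 size factor per library, and is called normalised reads here. A single read was worth 1.38 to 1.46 normalised reads in vesicles and 0.637 to 0.730 in cells, so a low value in vesicles rests on fewer reads than the same value in cells. Replicates of each kind correlated at Pearson's r of 0.981 to 0.994 across features on the log2 scale. Intervals and floors given below cover counting error only.

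The make-up of the 2 RNA pools differed in nearly every class. C/D box snoRNAs took 25.6%, 19.9% and 21.1% of the reads in vesicles, against 61.9%, 58.7% and 63.6% in cells. The tRNAs took 43.3%, 54.7% and 52.2% of the reads in vesicles, against 23.7%, 26.1% and 22.1% in cells. Many entries are copies of 1 sequence that hold nearly the same reads, and these shares add every copy. The 5 copies of U3 summed to 20.1 ± 2.90% of vesicle reads and 6.52 ± 0.556% of cell reads, so they make up most of the C/D share in vesicles. With U3 and each tRNA sequence counted once, a calculation added after the data were seen, the C/D share was 11.8 ± 1.06% for vesicles and 68.2 ± 1.96% for cells. The tRNAs then took 34.9 ± 5.24% in vesicles and 14.1 ± 1.18% in cells. A tRNA sequence counted once takes the mean of its copies, here and below. With tRNA sequences alone counted once, the tRNAs took 26.8% in vesicles and 13.2% in cells, and C/D box snoRNAs, at 32.5% in vesicles and 70.1% in cells, came before tRNA in vesicles too. Spliceosomal snRNAs made up 8.11 ± 0.534% of vesicle reads and 2.52 ± 0.118% of cell reads (mean ± SD, n = 3 each, as for the other shares). H/ACA box snoRNAs made up 2.84 ± 0.115% of vesicle reads and 6.16 ± 0.290% of cell reads. Y RNAs made up 1.58 ± 0.229% in vesicles and 3.28 ± 0.284% in cells. A single entry, miR-6724-5p in the ribosomal RNA repeat, held 14.7 ± 2.63% of vesicle reads and 0.781 ± 0.0665% of cell reads. All other microRNA entries together held 0.335 ± 0.0333% in vesicles and 1.37 ± 0.102% in cells. The vesicle and cell libraries did not overlap for any of these 7 shares, although the Y RNA shares overlapped when tRNA reads were left out. An exact permutation test of 3 against 3 libraries cannot go below p = 0.1 two-sided, and each of the 7 reached 0.1.

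**Figure D1:**
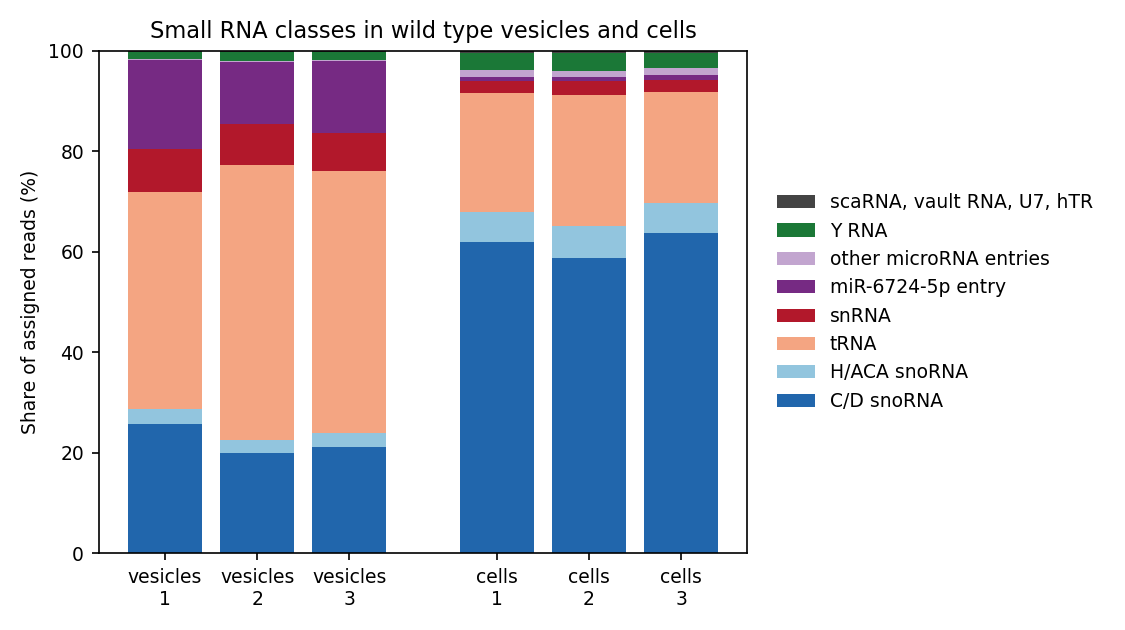
Percent of all reads assigned to features that fell in each RNA class, by library, for the 3 wild type vesicle and 3 wild type cell libraries. C/D box snoRNAs averaged 22.2% in vesicles and 61.4% in cells, and tRNAs 50.0% in vesicles and 24.0% in cells.

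The vesicle pool was also held by fewer RNAs. With each group of tRNA genes of 1 sequence counted once, 5, 6 and 6 features made up 50% of the reads in vesicles, against 34, 36 and 33 features in cells. With U3 counted once too, 3, 4 and 4 features did so in vesicles, and the counts for cells were the same. The top feature was miR-6724-5p in vesicles, with 24.3%, 18.96% and 21.3% of those reads. In cells it was the GAS5 snoRNA U76, with 3.48%, 3.45% and 4.32%. Besides miR-6724-5p, the most abundant features of vesicles were U1 snRNA, the copies of U3 and the tRNA-Glu genes. Those of cells were U76, U31, U43 and U44, all C/D box snoRNAs.

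In the limma fit, 352 of the 905 tested features were higher in vesicles (38.9%) and 388 were lower (42.9%), at an adjusted p under 0.05. The vesicle and cell libraries did not overlap for 758 features (83.8%). The median log2 change over all 905 was −0.13, vesicles over cells. These calls rest on the deposited size factors, under which vesicle libraries total 2.86 times the cell libraries. Scaling every library to its total instead lowers the log2 changes by a median of 1.51, and by as little as 0.42 for the lowest features, and then 151 features were higher (16.7%) and 629 lower (69.5%), with a median of −1.57. All 151 were also higher as deposited, and all 388 features lower as deposited were also lower with totals. In contrast, 82 features (9.06%) were higher as deposited and lower with totals. Only relative amounts can be compared: neither scaling gives the amount of an RNA per vesicle or per cell.

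**Figure D2:**
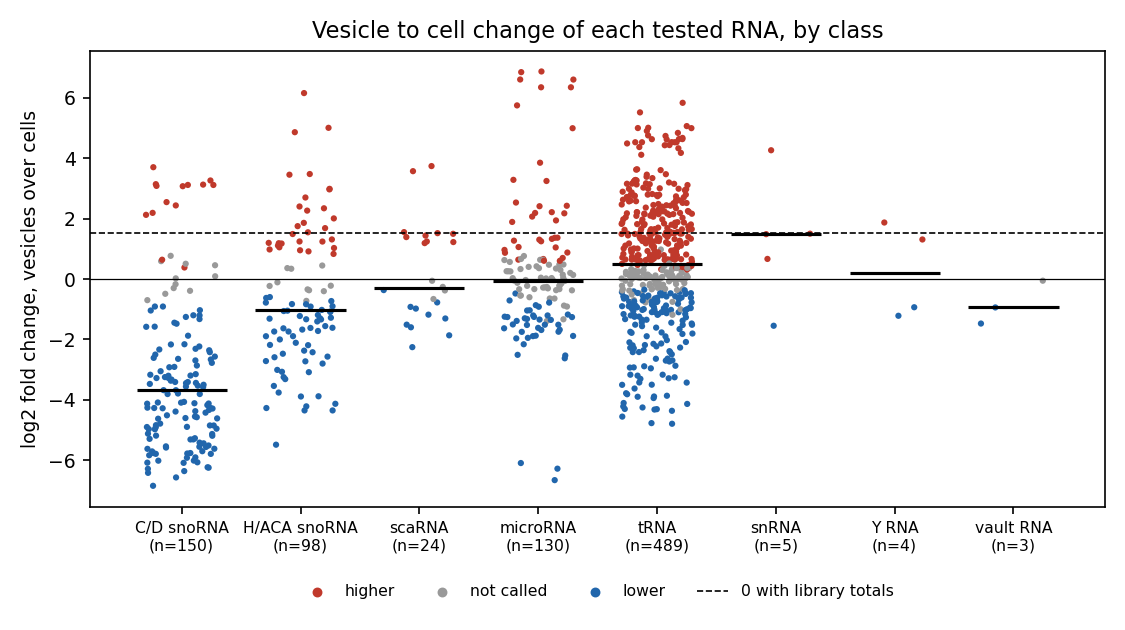
Log2 change, vesicles over cells, of every tested feature, by RNA class; each point is 1 feature, bars are class medians, and the dashed line at 1.52 is where 0 lies when libraries are scaled to their totals. C/D box snoRNAs have a median of −3.68 and tRNAs of 0.51.

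C/D box snoRNAs were depleted from vesicles as a class. Of 150 tested, 125 were lower in vesicles and 14 higher, and 5 of those 14 are copies of U3 that hold nearly the same reads. Their median log2 change was −3.68, beside −0.13 for all features, and 118 further C/D features of the table did not reach the minimum. With library totals the counts were 137 lower and 12 higher, with a median of −5.19.

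The most depleted came from the host genes ZFAS1, GAS5 and SNHG1. HBII-99 (SNORD12, in ZFAS1) had 62.2, 37.3 and 46.7 normalised reads in vesicles, against 5051, 5222 and 6584 in cells. Its log2 change of −6.84 (SE 0.20, limma adjusted p = 5.7e-18) was the lowest of all 905 features. All 3 ZFAS1 snoRNAs were lower by a similar size, with log2 changes between −6.84 and −5.78. U76, the most abundant feature of the cells, had 646, 303 and 394 normalised reads in vesicles, against 31305, 29777 and 39042 in cells. That is a log2 change of −6.28 (SE 0.23, limma adjusted p = 1.2e-16), with every vesicle library far below every cell library. U77, also in GAS5, had 104.1, 92.6 and 81.7 normalised reads in vesicles, against 8565, 7529 and 7788 in cells, a log2 change of −6.41 (SE 0.19). U44, often used to normalise small RNA assays, changed by −5.76 (SE 0.14). U43, in RPL3, had 704, 615 and 614 normalised reads in vesicles, against 26559, 24170.3 and 25763 in cells, a change of −5.31 (SE 0.14). U52 in C6orf48, 1 of the most depleted outside those hosts, changed by −6.08 (SE 0.16). All 10 tested GAS5 snoRNAs were lower in vesicles, with a median of −5.08, and so were all 4 of RPL13A, with a median of −3.72.

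A small set of C/D box snoRNAs went the other way. U22, which takes part in cleavage of the ribosomal RNA precursor, had 3505, 2902 and 2714 normalised reads in vesicles, against 227, 278 and 197 in cells. Its log2 change of 3.70 (SE 0.24, limma adjusted p = 3.9e-12) was the highest of the C/D class. U3, the main snoRNA of early precursor cleavage, had 148976, 102482 and 105434 normalised reads in vesicles, against 13650.1, 13003 and 15324 in cells, a change of 3.07 (SE 0.18, adjusted p = 6.6e-13). Its 5 tested copies changed by 3.07 to 3.26. HBII-142, printed above, had 1116, 1195 and 1237 in vesicles, against 157, 118 and 145 in cells, a change of 3.08 (SE 0.19). U94, which guides methylation of U6 snRNA, changed by 3.12 (SE 0.30). HBII-289, HBII-166 and HBII-115 changed by 2.43, 2.19 and 2.12. These 7 stayed higher with library totals, at log2 changes between 0.61 and 2.18. U8, which is needed for the large subunit RNAs, was called higher by a small margin (0.38, SE 0.17, limma adjusted p = 0.048) and was lower with library totals (−1.14). Likewise snR38A was higher by 0.64 (SE 0.26, adjusted p = 0.029) and lower with totals (−0.86), and both calls were lost when several single libraries were left out.

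SnoRNAs of precursor cleavage went both ways, near the shares over all tested features (38.9% higher, 42.9% lower), so the split is no trait of this group. Of 10 listed and tested, 5 were higher in vesicles (U3, U22, U8 and the H/ACA RNAs U17a and U17b) and 5 lower (U13, U14A, U14B and the H/ACA RNAs E2 and E3). With library totals 3 were higher and 6 lower. U13 had 418, 324 and 299 normalised reads in vesicles, against 7813, 7859 and 7834 in cells, a change of −4.51 (SE 0.15). A separate entry named U13_ changed by 2.54 (SE 0.21), and the files do not say how it differs from U13. U14A and U14B changed by −4.26 and −4.11. U17a, known as E1, had 4139.9, 5072 and 4568 normalised reads in vesicles, against 610.3, 571 and 577 in cells, a change of 2.96 (SE 0.16). E2 changed by −4.27 (SE 0.19) and E3 by −1.61 (SE 0.16).

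Depletion was least among the longest snoRNAs but did not follow length steadily. Among C/D box snoRNAs, with U3 counted once, 2 of 75 under 80 bases were higher in vesicles and 69 lower, with a median log2 change of −3.81. None of 44 with 80 to 99 bases was higher and 41 were lower, with a median of −4.14. Of 12 with 100 to 119 bases, 3 were higher and 8 lower (median −3.68), and of 9 with at least 120 bases, 4 were higher and 2 lower (median 0.38). Both long bins hold under 20 RNAs. H/ACA medians were −1.33 for 15 RNAs of 121 to 129 bases and −1.06 for 67 of 130 to 139 bases. They were −2.57 for 7 of 140 to 159 bases and 0.82 for 8 of at least 160 bases. With library totals the medians of the longest bins were −1.14 (C/D, 3 higher and 6 lower) and −0.70 (H/ACA, 2 higher and 4 lower). Across the 140 C/D snoRNAs the log2 change and annotated length had a Pearson's r of 0.40 and a Spearman's rho of 0.18. Across 97 H/ACA snoRNAs r was 0.12 and rho 0.02, and over both classes together r was 0.56 and rho 0.53. The log2 change also went with the level in cells: r was −0.52 and rho −0.47 for C/D, and −0.55 and −0.56 over both classes. The level in cells is itself part of the change, so a negative sign is partly built in. These coefficients describe RNAs that share the same 6 libraries and are not independent points. The median length was 114 bases for the 9 C/D sequences higher in vesicles, with a median GC content of 49.8%, and 78 bases for those lower, with a median GC content of 43.1%. TGATGA was found in 77.8% of the sequences higher in vesicles (7 of 9) and in 66.7% of those lower (68 sequences).

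**Figure D3:**
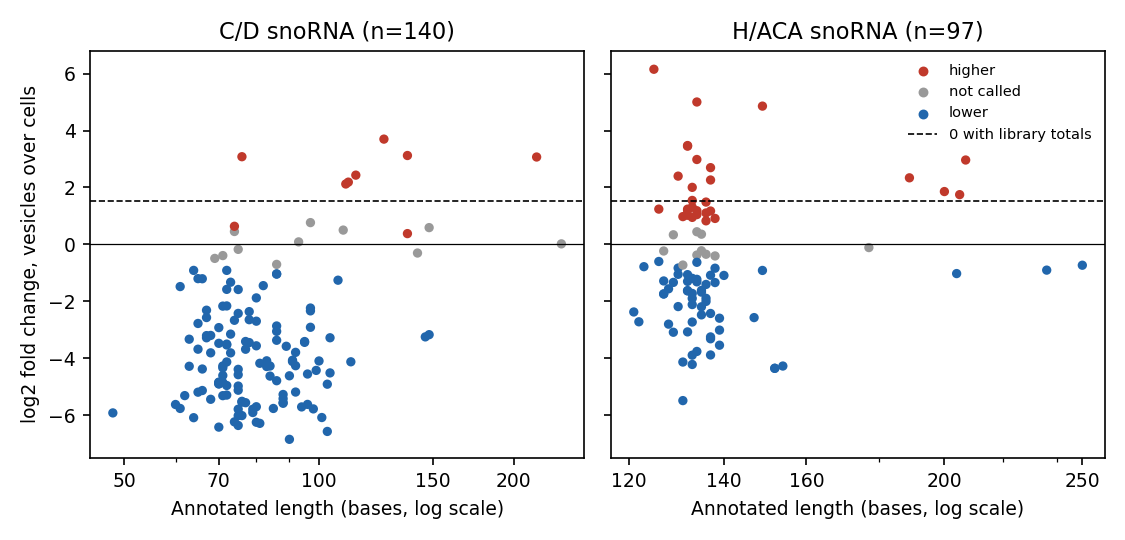
Log2 change, vesicles over cells, against the annotated length in bases of 140 C/D box snoRNAs (U3 once) and 97 H/ACA box snoRNAs; each point is 1 snoRNA. Pearson's r is 0.40 within C/D and 0.12 within H/ACA, and the classes occupy different lengths.

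SnoRNAs cut from 1 host transcript reached vesicles in very different proportions. Of 54 host genes with at least 2 tested members, holding 158 features, 33 had all members lower in vesicles, 1 had all members higher, and 10 had members called each way. SNHG1 spanned the widest range: U28 had 15.9, 20.7 and 10.2 normalised reads in vesicles, against 1661, 1088 and 1244 in cells, a log2 change of −6.35 (SE 0.31). U22 from the same host changed by 3.70, as above. U26 lay between them, with 8953, 7282 and 6577 normalised reads in vesicles, against 9794, 7683 and 8150.3 in cells, where the groups overlapped (−0.17, SE 0.18, limma adjusted p = 0.39). The other 5 SNHG1 snoRNAs, U31 among them, were lower. In SNHG25, U104 changed by −5.70 (SE 0.16) and ACA62 by 1.54 (SE 0.16). The GAS5 members ranged between U77 at −6.41 and U74 at −0.91. In C6orf48 U52 changed by −6.08, while U48, another RNA used for normalisation, changed by −0.91 (SE 0.18).

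The same held within 1 class. In KANSL2, ACA2b had 588, 879 and 824 normalised reads in vesicles, against 113, 110.2 and 123 in cells, a change of 2.70 (SE 0.21, limma adjusted p = 7.9e-11). ACA34 of the same host had 28.9, 31.8 and 45.2 in vesicles, against 202, 204 and 166 in cells, a change of −2.42 (SE 0.24, adjusted p = 4.6e-09). Both are 137 bases long, and each stood apart from its own cell values in every library, in opposite directions. ACA2a, the third KANSL2 member, changed by −2.19 (SE 0.30). In SNHG12, ACA61 changed by 2.40 and ACA16 by 1.18, while ACA44 changed by −1.62 and the C/D snoRNA HBII-420 by −2.69. In the EIF4A1 locus, the H/ACA snoRNA U67 changed by 2.26, while the H/ACA snoRNA ACA48 was not called (−0.22) and the C/D snoRNA mgU6-77 changed by −3.17. With library totals ACA16 turned to −0.33 and lost its call, while ACA2b (1.18), ACA61 (0.88) and U67 (0.74) stayed higher. Only SNHG3 had all its members higher: U17a by 2.96 and U17b by 1.75 (0.23 and not called with totals).

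**Figure D4:**
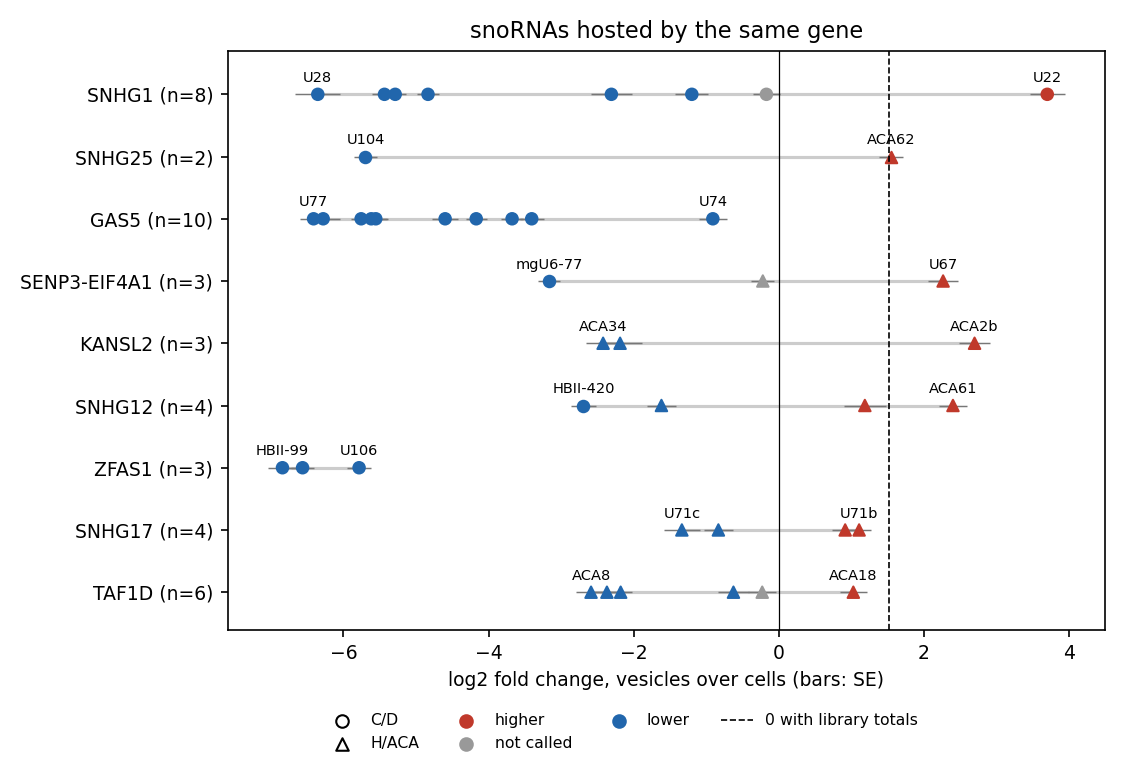
Log2 change, vesicles over cells, of the tested snoRNAs of single host genes; each point is 1 snoRNA, marked by box class, and the dashed line at 1.52 is where 0 lies with library totals. SNHG1 spans −6.35 (U28) to 3.70 (U22), while all GAS5 and ZFAS1 members lie below 0.

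H/ACA box snoRNAs were split. Of 98 tested, 58 were lower in vesicles and 30 higher, with a median log2 change of −1.04. With library totals 74 were lower and 12 higher, with a median of −2.49. ACA63 in ATP2B4 had 1938, 1372 and 1275 normalised reads in vesicles, against 21, 19.8 and 19.7 in cells. Its change of 6.15 (SE 0.18, limma adjusted p = 5.7e-18) was the largest gain of any snoRNA and stayed at 4.66 with totals. U99 (SNORA57) had 4332, 3797 and 3388 in vesicles, against 127, 134 and 132 in cells, a change of 4.86 (SE 0.17). U70B changed by 5.0 (SE 0.25), ACA38 by 3.47 (SE 0.18) and SNORA38B by 3.45 (SE 0.20). These 5 were higher in vesicles with either scaling.

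The most abundant H/ACA snoRNA of both vesicles and cells was ACA21, in RPL23. It had 20223, 14681 and 14478 normalised reads in vesicles, against 8454, 8324 and 8461 in cells, higher by 0.95 as deposited (SE 0.21, limma adjusted p = 0.00022) and lower with library totals (−0.57). ACA10, in RPS2, was higher with both scalings, at 2.00 (SE 0.18) and 0.49. At the other end, ACA24 (SNHG8) had 50.6, 16.6 and 27.7 in vesicles, against 1290.0, 1397 and 1285 in cells, a change of −5.48 (SE 0.27). Among those with a mean of at least 100 normalised reads in cells, E2 at −4.27, ACA17 at −4.21, ACA3-2 at −4.13 and ACA9 at −3.89 followed. The less abundant ACA59 and ACA59B, which hold the same reads, were both at −4.35. Of 8 tested H/ACA snoRNAs on a list drawn up for ribosomal protein hosts, 4 were higher and 3 lower, but 1 of them, ACA16, lies in SNHG12 in the annotation. Over all tested features 38.9% were higher and 42.9% lower, so these counts set the list little apart. Median lengths were alike between the H/ACA calls, at 134 bases for the 29 higher with a sequence and at 133 bases for the 58 lower. The ACA box stood in the last 8 bases in 28 of those 29 and in 56 of those 58.

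Among the 24 scaRNAs, 10 were higher in vesicles and 10 lower as deposited, near the shares over all tested features (38.9% higher, 42.9% lower). Their median was −0.31, beside −0.13 for all features. With library totals 2 were higher and 14 lower. The 2 higher with both scalings were U91 and mgU12-22/U4-8. U91 (SCARNA17) had 197, 160.4 and 184 normalised reads in vesicles, against 12.7, 12.5 and 12.4 in cells, a change of 3.74 (SE 0.23, limma adjusted p = 1.5e-12). The mgU12-22/U4-8 entry changed by 3.57 (SE 0.23) with nearly the same values as U91, so the 2 names may count the same reads. HBII-382 and mgU2-25/61 both matched the gene SCARNA2 and held nearly the same values, with changes of 1.55 and 1.39, and 0.036 and −0.13 with totals. U87 and U88 share the host ATG16L1, whose product acts in the same pathway as ATG7 and ATG12. U87 had 82.4, 81.6 and 80.2 in vesicles, against 31.2, 30.3 and 22.6 in cells (1.52, SE 0.24, and 0.032 with totals). U88 had 18.8, 16.6 and 10.2 in vesicles, against 27.4, 24.4 and 20.4 in cells (−0.66, SE 0.37, limma adjusted p = 0.11). Among the depleted, mgU2-19/30 changed by −2.25, ACA12 by −1.86, U92 by −0.98 and ACA45 by −0.92.

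Of the 5 spliceosomal snRNAs 4 were higher in vesicles as deposited, U1 by the most, and 1 was lower. With library totals 1 was higher and 2 lower. U1 had 239007, 197937 and 176443 normalised reads in vesicles, against 10313, 11547 and 9987 in cells, a log2 change of 4.26 (SE 0.16, limma adjusted p = 2.7e-16) that stayed at 2.74 with library totals. U2 changed by 0.66 (SE 0.16) as deposited and by −0.85 with totals. U5 changed by 1.5 (SE 0.17) and U6 by 1.48 (SE 0.18), and with totals by −0.019 and −0.035, neither called. U4, which pairs with U6 before splicing, went against its partner: it had 239, 300.0 and 299 normalised reads in vesicles, against 829, 864 and 749 in cells, a change of −1.55 (SE 0.13, adjusted p = 5.1e-10). U7, which directs histone mRNA 3′ end cleavage, had 152, 192 and 235 in vesicles, against 789, 769 and 778 in cells, a change of −2.03 (SE 0.18). Telomerase RNA hTR had 1145, 831 and 877 in vesicles, against 42.7, 51.5 and 68.6 in cells, a change of 4.12 (SE 0.20) that stayed at 2.61 with totals.

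The 4 Y RNAs split evenly, near the shares over all tested features (38.9% higher, 42.9% lower). RNY5 had 24104, 32372 and 28757 normalised reads in vesicles, against 8854, 8039 and 6472 in cells, a log2 change of 1.87 (SE 0.19, limma adjusted p = 5.3e-09). RNY4 had 5973, 7296 and 6379.8 in vesicles, against 2769, 2921 and 2266 in cells, a change of 1.31 (SE 0.15). RNY1 had 5569.5, 5089 and 4092 in vesicles, against 9888, 9781 and 8371 in cells, a change of −0.93 (SE 0.16). RNY3 had 6655, 5919 and 4933 in vesicles, against 12942, 14359 and 13114 in cells, a change of −1.22 (SE 0.15). No pair of groups overlapped, as was the case for 83.8% of all tested features. The order RNY5, RNY4, RNY1, RNY3 does not depend on scaling, but the sign for RNY4 does, at −0.21 with totals, and RNY5 was not called there (0.35). Of the vault RNAs, VTRNA1-1 changed by −0.94 (SE 0.18) and VTRNA1-3 by −1.47 (SE 0.20), while VTRNA1-2 had 237, 253 and 206 in vesicles, against 271, 255 and 200.1 in cells, which overlapped (−0.06, SE 0.18, adjusted p = 0.78).

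Transfer RNA reads in vesicles were dominated by tRNA-Glu. Of all tRNA reads, with copies of 1 sequence counted once, Glu took 69.7%, 66.3% and 66.3% in vesicles, against 14.2%, 16.2% and 15.2% in cells (exact permutation test, two-sided p = 0.1, the smallest that 3 against 3 allows). Tested Glu isodecoders may share reads: Glu-TTC-4-2 and Glu-TTC-chr1-138 averaged 104342 and 104222 normalised reads in vesicles. With only the most abundant isodecoder of each amino acid kept, a calculation added after the data were seen, Glu took 71.04 ± 2.21% in vesicles and 17.3 ± 1.27% in cells. Glu-CTC-1-2 had 107969, 116974 and 108111 normalised reads in vesicles, against 4506, 5394 and 4610.0 in cells, a log2 change of 4.52 (SE 0.18, limma adjusted p = 3.1e-16). Glu-TTC-4-2 changed by 5.0 (SE 0.21). By anticodon, Glu-TTC and Glu-CTC were both higher in sum by 4.30 on the log2 scale, with no test.

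The shares of most other amino acids were smaller in vesicles. Gly took 5.40 ± 0.614% of tRNA reads in vesicles and 14.6 ± 0.176% in cells, Val 2.74 ± 0.285% in vesicles and 11.2 ± 0.489% in cells, and Ala 2.49 ± 0.270% in vesicles and 9.99 ± 0.318% in cells. Cys differed most in proportion among the standard amino acids, with 0.184 ± 0.0332% in vesicles and 1.99 ± 0.154% in cells. With all isodecoders in the sum, His was the only one besides Glu whose share was larger in all vesicle libraries, at 0.634 ± 0.0824% in vesicles and 0.410 ± 0.0468% in cells. Shares of Ser, Gln and selenocysteine tRNA overlapped between vesicles and cells. With only the most abundant isodecoder of each amino acid kept, as above, His overlapped, at 2.06 ± 0.258% in vesicles and 1.77 ± 0.184% in cells, and Ser was larger in all vesicle libraries, at 2.34 ± 0.152% in vesicles and 0.778 ± 0.0368% in cells.

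**Figure D5:**
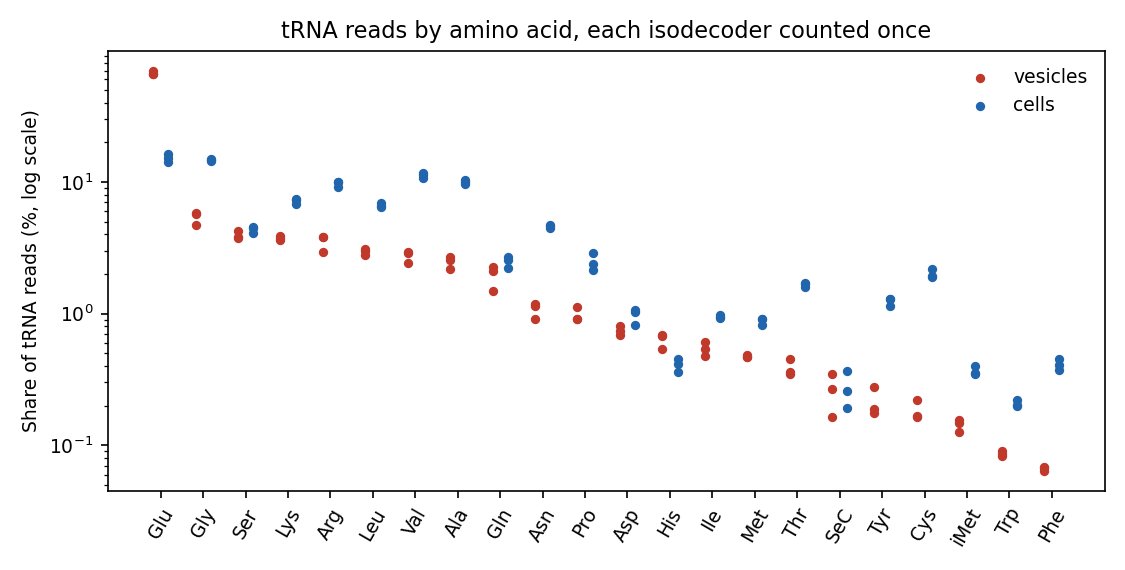
Share of tRNA reads by amino acid, in percent on a log axis, with copies of 1 sequence counted once; points are the 3 wild type vesicle and 3 wild type cell libraries. Glu averages 67.4% in vesicles and 15.2% in cells, and most other amino acids lie lower in vesicles.

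A lower share does not mean fewer normalised reads. Of 489 tested tRNA genes, 255 were higher in vesicles and 148 lower, with a median log2 change of 0.51. With library totals 108 were higher and 299 lower, with a median of −0.94. Counting copies of 1 sequence once, 152 of 325 isodecoders were higher (46.8%) and 112 lower (34.5%). Genes of the 6 isotypes known for abundant 5′ fragments (Glu, Gly, Val, Lys, Asp and His) had a median of 1.17, with 91 of 147 higher and 41 lower, and the other 342 a median of 0.30, with 164 higher and 107 lower. With library totals the 147 had a median of −0.30, with 50 higher and 71 lower, and the other 342 a median of −1.20, with 58 higher and 228 lower.

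Genes of 1 isotype could differ widely. Val-AAC-1-1 had 3180.1, 4219.8 and 3914 normalised reads in vesicles, against 67.5, 65.3 and 62.1 in cells, the largest gain of any tRNA gene at 5.83 (SE 0.15, limma adjusted p = 8.6e-19). With the copies of each sequence averaged, Val-AAC isodecoders summed to 1366 in vesicles and 1367 in cells on average, with no test. Averaging dilutes a copy that stands apart, and Val-AAC-1-1 alone exceeds this total in vesicles. The total therefore does not show whether the anticodon as a whole gained. Their log2 changes ranged from −3.86 to 4.02. Val-CAC-8-1 had 66.5, 71.9 and 54 in vesicles, against 1768, 1699 and 1814 in cells, a change of −4.77 (SE 0.18). Gly-CAC-chr1-17 held the same cell values as Val-CAC-8-1, so these 2 entries appear to share reads. Summed over isodecoders, with no test, Ser-AGA differed by 4.73 on the log2 scale and Ser-GCT by −0.38. His-GTG-2-1 changed by 5.51 (SE 0.32), with 1.56 normalised reads on average in cells. Cys-GCA-17-1 changed by −4.55 (SE 0.18), and 2 nuclear copies of mitochondrial tRNA-Tyr, as their names give them, by −4.36 and −4.32. Gly-GCC-1-3 was higher by 0.63 as deposited and lower with totals (−0.88), and Arg-CCT-4-1 lower with both (−1.16 and −2.68). Among 58 isodecoders with at least 2 tested copies, the copies spanned a median of 0.51 on the log2 scale, and 20 spanned over 1.

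Mature microRNAs were a small part of both pools. Of 130 tested entries, 36 were higher in vesicles and 41 lower, with a median of −0.05. With library totals 15 were higher and 97 lower. Of 13 tested entries that lie on another RNA, 7 were higher and 5 lower, beside 38.9% higher and 42.9% lower over all tested features. With library totals 4 of the 13 were higher and 7 lower. These entries held the lowest changes of the class. The miR-6724-5p entry had 554716, 349265 and 390083 normalised reads in vesicles, against 7519, 7494 and 8737 in cells, a change of 5.74 (SE 0.18, limma adjusted p = 1.5e-17), 4.22 with totals. Both arms of miR-3607, on SNORD138, changed by −6.65 and −6.27, and miR-3653-5p, on SNORD125, by −6.09, as deep as the snoRNAs above. The miR-664a-3p entry on SNORA36B changed by 2.53, miR-6516-5p on SCARNA16 by 2.21 and miR-4485-3p, which matches MT-RNR2, by 2.42. In these entries reads of a mature microRNA and reads of the longer RNA cannot be told apart.

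The highest changes of the class came from both arms of miR-937, miR-4664 and miR-6845, whose values were nearly alike. The 5p arm of miR-4664 had 163, 108 and 87.5 normalised reads in vesicles and 0 in every cell library. Summed over 3 libraries each of the 6 arms held 249 to 251 reads in vesicles and 0 to 2 reads in cells. Set against a floor of 3 reads over the cell libraries, miR-4664-5p was at least 177-fold higher and miR-6845-5p at least 176-fold higher in vesicles. In miR-937-5p, with 2 cell reads, the ratio was 256 (95% exact interval 70.1 to 2126). The arms of 1 hairpin differed by at most 1 read in any library, so the 6 entries may count the same reads and are not 6 separate results. Of 26 hairpins with both arms tested, 4 had arms within 5% of each other in summed reads, these 3 and miR-3607.

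Away from other RNAs, 29 of 117 entries were higher, 36 lower, and the median was −0.13. Of the let-7 family, which acts against proliferation and stem-cell programmes, none of 6 tested was higher and 4 were lower. Over all tested features 38.9% were higher and 42.9% lower. With library totals all 6 were lower, as were 90 of the 117 entries away from other RNAs. Let-7a-5p had 821, 518 and 569 normalised reads in vesicles, against 1509.8, 1286 and 1535 in cells, a change of −1.21 (SE 0.15, limma adjusted p = 2.2e-07). Let-7e-5p, which shares its seed, changed by −1.89 (SE 0.24), let-7c-5p by −1.35 and let-7f-5p by −1.32. Let-7b-5p (−0.37) and let-7g-5p (−0.34) were not called, though let-7b-5p was at −0.75 and called without vesicle replicate 1. The HOX-cluster microRNAs miR-196a-5p and miR-196b-5p, which share a seed, changed by −1.96 (SE 0.17) and −1.62 (SE 0.25).

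Strands with 1 seed could go opposite ways. MiR-92a-3p, the most abundant microRNA away from other RNAs in vesicles, had 2985, 1878 and 2059 normalised reads in vesicles, against 1486, 1245 and 1463 in cells, a change of 0.70 (SE 0.15, limma adjusted p = 0.00017) and −0.82 with library totals. MiR-25-3p was likewise higher by 0.64 and lower with totals (−0.88). MiR-92b-3p had 18.8, 13.8 and 19 in vesicles, against 29.9, 33.6 and 46 in cells, a change of −1.03 (SE 0.24) that stayed lower with totals. Of the miR-17-92 cluster and its paralogs, 2 of 9 tested were higher, 1 was lower and 6 were not called, and all 9 were lower with totals. The 4 bases GGAG, part of a sorting motif described in vesicles of T cells, stood in 7 of 99 tested microRNAs with a sequence. None of those 7 was higher and 5 were lower, while 16 of the other 92 were higher and 29 lower. GGAG occurs in 15.7% of the 2370 mature sequences of the reference, read on the mature strand.

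MicroRNAs typical of blood and liver, which HEK293T cells do not make in quantity, were at a low level in vesicles and near 0 in cells. Of 8 listed microRNAs in the table, 4 were tested. All 4 were under the minimum of 10 in every wild type cell library, so they passed it only through other libraries. They were called higher in vesicles with both scalings, beside 38.9% of all tested features as deposited. That direction was largely set by the filter, so the calls add no support beyond the values. MiR-486-5p, of red blood cells, had 56.4, 58.1 and 48.1 normalised reads in vesicles, against 1.27, 5.28 and 2.92 in cells, a change of 3.85 (SE 0.34, limma adjusted p = 6.7e-10). MiR-150-5p, of lymphocytes, had 54.9, 27.7 and 32.1 in vesicles, against 0, 0.66 and 0 in cells. MiR-223-3p, of myeloid cells, held 19 reads in vesicles and 0 in cells, at least 13.3-fold higher against a floor of 3 reads over the cell libraries. MiR-126-3p, of endothelium, had 15.9, 18 and 16 in vesicles, against 1.91, 0.66 and 6.57 in cells. The 8 together held 107 to 150.3 normalised reads per vesicle library and 3.19 to 10.2 per cell library, or 1.33% to 1.59% of the reads of microRNA entries away from other RNAs in vesicles and 0.0358% to 0.111% in cells. The growth medium held bovine serum before the starvation, and its part in these values was not tested. MiR-144-3p and the 2 arms of miR-142 were at or near 0 in both.

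The vesicle to cell change was largely shared by the knockout lines, tested in the same fit. Of the 352 features higher in wild type vesicles, 288 were also higher in vesicles of both knockouts, and of the 388 lower, 305 were lower in both. In ATG7-/- vesicles against ATG7-/- cells, 362 features were higher (40.0%) and 387 lower (42.8%), and for ATG12-/- the counts were 355 (39.2%) and 372 (41.1%). The depletion of C/D box snoRNAs held in all: 124 of the 125 lower in wild type were lower in both knockouts. Of the 30 H/ACA snoRNAs higher in wild type vesicles, 10 were higher in both knockouts and 12 were lower in at least 1, and of the 10 such scaRNAs 2 were higher in both and 4 were lower in at least 1. The median H/ACA change was −1.04 in wild type, −3.20 in ATG7-/- and −1.85 in ATG12-/-.

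The difference between the changes was tested directly. The wild type change was above that of ATG7-/- for 260 features (28.7%) and below it for 238 (26.3%), and above that of ATG12-/- for 109 (12.0%) and below it for 130 (14.4%). This balance rests on the deposited scaling: with library totals 326 features were above ATG7-/- (36.0%) and 71 below (7.85%), and 268 above ATG12-/- (29.6%) and 20 below (2.21%). As deposited, the 2 sides differed by class. Above ATG7-/- were 117 of 150 C/D box snoRNAs (1 below), 87 of 98 H/ACA box snoRNAs (0 below) and 19 of 24 scaRNAs (0 below). Below ATG7-/- were 228 of 489 tRNA genes (17 above). For ATG12-/- the counts above and below were 33 and 17 (C/D), 35 and 10 (H/ACA) and 25 and 78 (tRNA). ACA62, higher in wild type vesicles by 1.54, was lower in ATG7-/- by 2.87 and in ATG12-/- by 1.38 on the log2 scale, so the wild type change stood above the knockout changes by 4.42 (SE 0.23) and 2.93 (SE 0.23). ACA16 did likewise, with 1.18 in wild type, −3.24 in ATG7-/- and −2.01 in ATG12-/-. U22 rose in vesicles in every line, by 3.70 in wild type, 5.11 in ATG7-/- and 6.55 in ATG12-/-. RNY3 was lower in wild type vesicles by 1.22 but was not called in either knockout (−0.25 and −0.27), though with library totals it was lower in both (−2.24 and −2.37). U1, RNY4 and U77 had changes within 1 of each other in the 3 lines: 4.26, 4.01 and 4.91 for U1, 1.31, 1.30 and 1.29 for RNY4, and −6.41, −6.52 and −6.10 for U77, in the order wild type, ATG7-/-, ATG12-/-. Each knockout line is 1 clone, so the clone and the deleted gene cannot be told apart, and the ATG7 and ATG12 mRNAs were not analysed here.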

How the data were processed

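Small RNA from wild type HEK293T vesicles and cells, 3 libraries each, was made with a kit that tails RNA and copies it by template switching, amplified for 12 cycles and read as single 50 bp reads, per the labels. The submitters' processing notes name Bowtie2 2.3, cutadapt 2.3, DESeq2 and bedtools, with hg38 (GRCh38) as the build. How these were combined, and how reads that match several copies were treated, is not given in the sources used here. The authors deposited a signal per feature and library; within a library all values (100%) are multiples of 1 step (tolerance 1e-06 of a whole number), so whole reads were recovered from the deposited signal.

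The test was limma 3.58.1 (R 4.3.3) with an intensity trend on log2(value + 1). All 18 libraries entered in 6 groups, with the contrast wild type vesicles minus wild type cells. Features reaching 10 in at least 3 libraries were tested, with Benjamini-Hochberg adjustment over all 905 and calls at 0.05, so changes of low features are understated. The scripts were tested on simulated data. Class shares were compared with the exact permutation test. Alternatives included edgeR 4.0.16 and DESeq2 1.42.0 on the recovered reads. Depth differs between vesicles and cells without overlap, and low values are the least precise. Features were placed with GENCODE release 29 and RefSeq GRCh38.p14; of 117 tested microRNAs away from other RNAs, 99 had a sequence.

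Named features are, per class, up to 5 with the largest called changes in each direction (groups not overlapping, mean at least 100 in the higher group), the 3 most abundant in vesicles and in cells, all snRNA, Y, vault and telomerase RNAs, and members of listed groups. For a host gene, the members at its ends are named too. A tRNA sequence is named by its most abundant copy. Members and lists were chosen with earlier results of these data known. The labels call the replicates biological and name no separate cultures, so p-values measure the spread between these libraries. Replicate pairs of each group had a chi-square of 7.87 to 87.9 per degree of freedom over reads, so none was a copy of another. Vesicle replicate 1 stood furthest apart, at 87.9 and 52.8 against replicates 2 and 3, which gave 7.87 against each other. Cell pairs gave 13.5 to 21.3. The labels do not pair vesicle and cell libraries beyond a number.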

Additional observations from a re-analysis of the deposited data

Results flagged for a closer look

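Results are listed here where the wild type change, vesicles over cells, differed from that of a knockout line by the limma test of the difference itself; groups of 3 libraries are too small for a check of single libraries. Values are the wild type change minus the knockout change on the log2 scale. Over all 905 tested features, 260 differences from ATG7-/- were above 0 and 238 below, and 109 from ATG12-/- were above and 130 below. With library totals the counts were 326 and 71 for ATG7-/-, and 268 and 20 for ATG12-/-. As deposited, 228 of the 238 below ATG7-/- were tRNA genes.

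Of 98 tested H/ACA box snoRNAs, the wild type change was above that of ATG7-/- for 87 and below it for 0. For ATG12-/- the counts were 35 above and 10 below. Among the features listed here, the H/ACA box snoRNAs ACA62 and ACA16 gave the largest differences. For ACA62 they were 4.42 from ATG7-/- (SE 0.23, limma adjusted p = 9.9e-12) and 2.93 from ATG12-/- (adjusted p = 1.4e-08). For ACA16 they were 4.42 (SE 0.41, adjusted p = 2.7e-08) and 3.19 (adjusted p = 1.4e-05). U99 differed by 2.50 from ATG7-/- (adjusted p = 2.7e-08). ACA63 differed by 1.28 from ATG7-/- and by −0.86 from ATG12-/-.

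Of 150 tested C/D box snoRNAs, the wild type change was above that of ATG7-/- for 117 and below it for 1, which was U22. For ATG12-/- the counts were 33 above and 17 below. The C/D features listed here therefore do not stand for their class. U22 differed by −1.41 from ATG7-/- and −2.85 from ATG12-/- (adjusted p = 6.8e-06). U3 differed by 1.07 from ATG7-/-, and U76 by −1.31 from ATG12-/-. In other classes, the miR-6724-5p entry differed by 1.36 from ATG7-/- and 1.01 from ATG12-/-. RNY3 differed by −0.96 from ATG7-/- and −0.95 from ATG12-/-. From ATG12-/- alone, hTR differed by −1.49, miR-486-5p by −2.19 and U1 by −0.65. With library totals the differences of RNY3 (−0.50 and −0.37) and those from ATG12-/- of ACA63 (−0.29), U76 (−0.72) and U1 (−0.068) were no longer called.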

How the results depend on the processing

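Of 122 named features, 96 kept their direction and call in every alternative, and 116 in every alternative that kept the deposited scaling. Scaling to library totals gave 151 features higher and 629 lower. Class medians then were −5.19 (C/D), −2.49 (H/ACA), −1.80 (scaRNA), −1.47 (microRNA) and −0.94 (tRNA). The counts higher were 12 H/ACA, 2 scaRNA, 15 microRNA and 108 tRNA, and 97 microRNA and 299 tRNA were lower. Library totals without tRNA and the ribosomal repeat gave medians of −4.10 (C/D), −1.43 (H/ACA), −0.73 (scaRNA), −0.43 (microRNA) and 0.10 (tRNA). TMM over microRNAs gave −3.45 (C/D), −0.82 (H/ACA) and 0.74 (tRNA). With totals the wild type change was below that of ATG7-/- for 71 features, and above and below that of ATG12-/- for 268 and 20.

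Without the filter the C/D median was −3.44, and 93 microRNAs were higher and 63 lower; with a minimum of 50, 21 microRNAs were lower, since the number tested changes. With tRNA copies of 1 sequence counted once, 152 were higher, with a median of 0.26. Differences of shares, vesicles minus cells in percentage points, then were −2.86 (H/ACA), 13.6 (tRNA), 9.03 (snRNA) and 20.6 (miR-6724-5p). Without the ribosomal repeat they were −35.8 (C/D), −2.87 (H/ACA), 34.4 (tRNA) and 6.98 (snRNA), and without tRNA −2.39 (H/ACA), 12.996 (snRNA) and 28.3 (miR-6724-5p). With U3 counted once, a setting added after the data were seen, they were −51.98 (C/D), 34.2 (tRNA), 7.01 (snRNA) and 16.8 (miR-6724-5p), and with U3 and isodecoders once −56.4 (C/D), −2.02 (H/ACA), 12.5 (snRNA) and 27.2 (miR-6724-5p). Within classes the correlation with length was 0.40 (C/D) and 0.12 (H/ACA).

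Directions turned with library totals for U8 (−1.14), snR38A (−0.86), ACA21 (−0.57), ACA16 (−0.33), ACA47 (−0.013), U100 (−0.063), mgU2-25/61 (−0.13), U2 (−0.85), U5 (−0.019), U6 (−0.035), RNY4 (−0.21), miR-92a-3p (−0.82), miR-25-3p (−0.88) and tRNA-Gly-GCC-1-3 (−0.88). U8 also turned with totals without tRNA and the repeat (−0.039), and U26 with TMM over microRNAs (0.056). VTRNA1-2, not called, turned with TMM over all features (0.0052), over microRNAs (0.17) and without cell replicate 1 or vesicle replicate 3, over a range of −0.19 to 0.032 when 1 library was left out. Let-7b-5p, also not called, turned without vesicle replicate 2, over a range of −0.75 to 0.021.

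Leaving out 1 wild type library at a time gave 342 to 353 features higher and 371 to 386 lower. EdgeR gave 356 and 389, and DESeq2 359 and 380. Deviations of same-numbered vesicle and cell libraries correlated at −0.04, 0.16 and −0.06. With 3 libraries per group these values cannot decide whether the numbers mark pairs. With the replicate number as a block, in the 6 wild type libraries, 351 features were higher and 396 lower.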

Other observations

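Seeds shared by pairs of tested microRNAs gave further values. MiR-125a-5p and miR-125b-5p, of 1 seed, were both higher in vesicles, at log2 changes of 0.66 and 1.37, with library totals at −0.84 and 0.000835. MiR-130b-3p and miR-454-3p were both lower, at −1.26 each. None of the 4 tested strands with the seed of miR-17-5p was called. Hypoxia-linked miR-210-5p held 32 reads in vesicles and 3 in cells, a ratio of 24.0 in normalised reads (95% exact interval 7.498 to 122.3). The mirtron miR-877-5p, which is spliced rather than cut by Drosha, had 28.9, 22.1 and 17.5 normalised reads in vesicles, against 86.6, 95 and 134 in cells, a change of −2.16 (SE 0.23, limma adjusted p = 1.5e-08).

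Of the 9 microRNAs listed for blood and liver, miR-122-5p held 10 reads in vesicles and 1 in cells, under the minimum for testing. MiR-223-3p and miR-144-3p are also linked to the RNA-binding protein YBX1 in vesicles, and of these only miR-223-3p was tested.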
